A study of Homo sapiens with 12 samples.

Results

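The 48 keratin genes described here were taken by name from an expression array of T47D-MTVL cells: the symbol had to be KRT followed by digits, with or without 1 letter A to C, on a probe set to which the platform annotation gives no other gene. They are 48 of the 18418 genes with such a probe set and occupy 51 of the 19461 probe sets with 1 symbol. Of these genes 45 have 1 probe set. For KRT18, KRT39 and KRT40, which have several, the brightest over all arrays was used. The rule for the genes uses only names, but the family was chosen with earlier results of these data known. KRT6A, KRT6B, KRT6C, KRT17, KRT81, KRT82 and KRT86 are not analysed here.

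T47D-MTVL is a line derived from the human luminal breast cancer line T47D that carries 1 integrated copy of a luciferase reporter under the MMTV promoter. The cells received a control siRNA (siCt) or 1 siRNA against the chromatin remodeler CHD8 (siCHD8), were kept without serum or phenol red for 48 h, and were then given 10 nM of the synthetic progestin R5020 or its ethanol vehicle (EtOH) for 6 h. Each of the 4 conditions, siCt with EtOH, siCt with R5020, siCHD8 with EtOH and siCHD8 with R5020, has 3 arrays that the labels call biological replicates. The question is which keratins the progestin changes and whether that change differs after depletion of CHD8. Serum withdrawal and transfection are shared by all 4 conditions, and with 1 siRNA per target an effect of its sequence and an effect of the target cannot be told apart.

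Keratins are the intermediate filament proteins of epithelial cells. A filament is built from pairs of 1 acidic type I keratin (28 of the genes here) and 1 basic type II keratin (20 here), and the pair a cell uses reports its kind: KRT8 with KRT18 or KRT19 in simple and luminal epithelium, KRT5 with KRT14 in basal and myoepithelial cells, and the hair keratins in the shaft of the hair. The genes fall here into 5 luminal (KRT7, KRT8, KRT18, KRT19, KRT20), 4 basal (KRT5, KRT14, KRT15, KRT16), 16 other epithelial, 14 hair and 9 root sheath keratins. They lie in 2 clusters, the type II genes with KRT18 on chromosome 12 (21 genes here) and the other type I genes on chromosome 17 (27 genes here).

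RefSeq (GRCh38.p14) promoter windows, read for the 250 bases before the start site, were at hand for 33 of the 48 keratins. The entries of KRT1, KRT7, KRT13, KRT14, KRT15, KRT16, KRT18, KRT19, KRT23, KRT72, KRT77, KRT78, KRT80, KRT83 and KRT222 are missing. The 4 stretches below, each of the 150 bases before the start site and all on the minus strand, are shown because they cover the groups compared below: KRT8 (chr12:52926470-52926619) for the luminal keratins, KRT5 (chr12:52520395-52520544) for the basal ones, KRT85 (chr12:52367482-52367631), the hair keratin that fell with R5020 in siCt, and KRT33B (chr17:41369814-41369963), a hair keratin with the TATA box letters that many of the family share. They read 5′ to 3′, and capitals mark a TATAAA match.
KRT8: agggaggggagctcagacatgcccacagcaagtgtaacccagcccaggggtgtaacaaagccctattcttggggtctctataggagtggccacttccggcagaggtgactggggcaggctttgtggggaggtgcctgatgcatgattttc
KRT5: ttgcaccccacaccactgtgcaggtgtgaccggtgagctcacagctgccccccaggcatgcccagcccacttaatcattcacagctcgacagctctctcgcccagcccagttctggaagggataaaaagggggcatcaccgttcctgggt
KRT85: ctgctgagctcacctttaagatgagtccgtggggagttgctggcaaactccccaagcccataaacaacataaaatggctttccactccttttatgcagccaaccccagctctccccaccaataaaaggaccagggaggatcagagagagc
KRT33B: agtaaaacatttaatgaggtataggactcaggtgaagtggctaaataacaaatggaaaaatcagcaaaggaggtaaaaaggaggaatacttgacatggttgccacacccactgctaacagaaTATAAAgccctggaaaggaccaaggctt

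In all, 5 motifs were searched on both strands of the 250 bases, in the first window listed for a gene. TATAAA, the consensus of the TATA box that places the start of transcription, was found in 19 of 33 keratin windows (57.6%) and in 11.1% of all 27305 windows. In 15 of the 33 (45.5%) it lay on the gene's own strand with its first base 25 to 35 bases before the start, against 2.41% of all windows. GGGCGG, the letters of an SP1 site, was found in 4 keratin windows (12.1%) and in 42.3% of all. TGTTCT, the letters of 1 arm of the element that the progesterone and glucocorticoid receptors share, was in 4 keratin windows (12.1%, KRT9, KRT25, KRT28 and KRT74) and in 12.4% of all. Both arms of that element with 3 bases between them, a match that can overlap TGTTCT, were in 0 keratin windows and in 0.330% of all, and the AP-1 letters TGACTCA were in 0 and in 4.16%. KRT5, KRT8 and KRT85 hold none of the 5 motifs in this window. These are counts of letters and not of bound sites, and the keratins of 1 cluster share ancestry, so their windows are not independent. Of the keratins called with R5020 under either siRNA, described below, only KRT85 has a window. Of the brighter keratins described below only KRT8 has one. The keratin shares above therefore describe mostly dim keratins that were not called.

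Levels are log2 intensities, in which a difference of 1 is a 2-fold difference, and probe sets differ in how brightly they read the same amount of RNA, so differences are taken within a probe set. The median of the probe sets tested, 4.59, serves here only to split the family into brighter and dimmer probe sets. On this scale 8 keratins lay above it on the mean of the 12 arrays: the luminal KRT19, KRT8, KRT18 and KRT7, the basal KRT14 and KRT15, and KRT23 and KRT80 of the other epithelial group. KRT15 lay above it through its siCt arrays (condition means 4.91 and 4.78, against 4.42 and 4.57 in siCHD8). The 14 hair keratins had means of 2.04 to 4.19 and the 9 root sheath keratins of 1.45 to 3.71. The deposited values carry no detection call, so it cannot be said which of the other 40 keratins was above background. Of other cell types, the 6 fibroblast markers had means of 1.52 (DCN and LUM) to 5.48 (COL1A1, the 1 above the median) and the 6 blood and endothelial markers of 1.16 (PTPRC) to 4.26 (CD68). Arrays of 1 condition correlated at 0.989 to 0.996. CHD8 itself was at 66.9% of its siCt level with EtOH (log2 difference -0.58, SE 0.13, adjusted p = 0.0711, limma) and at 65.3% with R5020 (-0.62, SE 0.13, adjusted p = 0.0627), and under either treatment the 3 siCHD8 values were the lowest. CHD8 also fell with R5020, by 0.42 in siCt (adjusted p = 0.0349) and by 0.46 in siCHD8 (adjusted p = 0.0258). Its condition means were 5.77 with EtOH and 5.35 with R5020 in siCt, and 5.19 and 4.73 in siCHD8.

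In siCt cells R5020 lowered 6 keratins and raised none at an adjusted p under 0.05 (limma over 21214 probe sets). The 6 were KRT23, KRT80, KRT14, KRT18, KRT7 and KRT85, 12.5% of the family, beside 6.00% of all probe sets lower and 8.10% higher. Of the 8 keratins above the median level 5 fell, where 8.50% of all probe sets above that level did, and of the 40 others 1 fell, where 3.50% did. In siCHD8 cells 4 keratins fell and none rose, KRT23, KRT18, KRT80 and KRT222 (8.33%, beside 5.43% of all probe sets lower and 6.04% higher). The change of the other 42 keratins in siCt and of the other 44 in siCHD8 did not pass. In a bulk RNA measurement, fewer cells that express a keratin and less of its RNA per cell cannot be told apart.

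**Figure D1:**
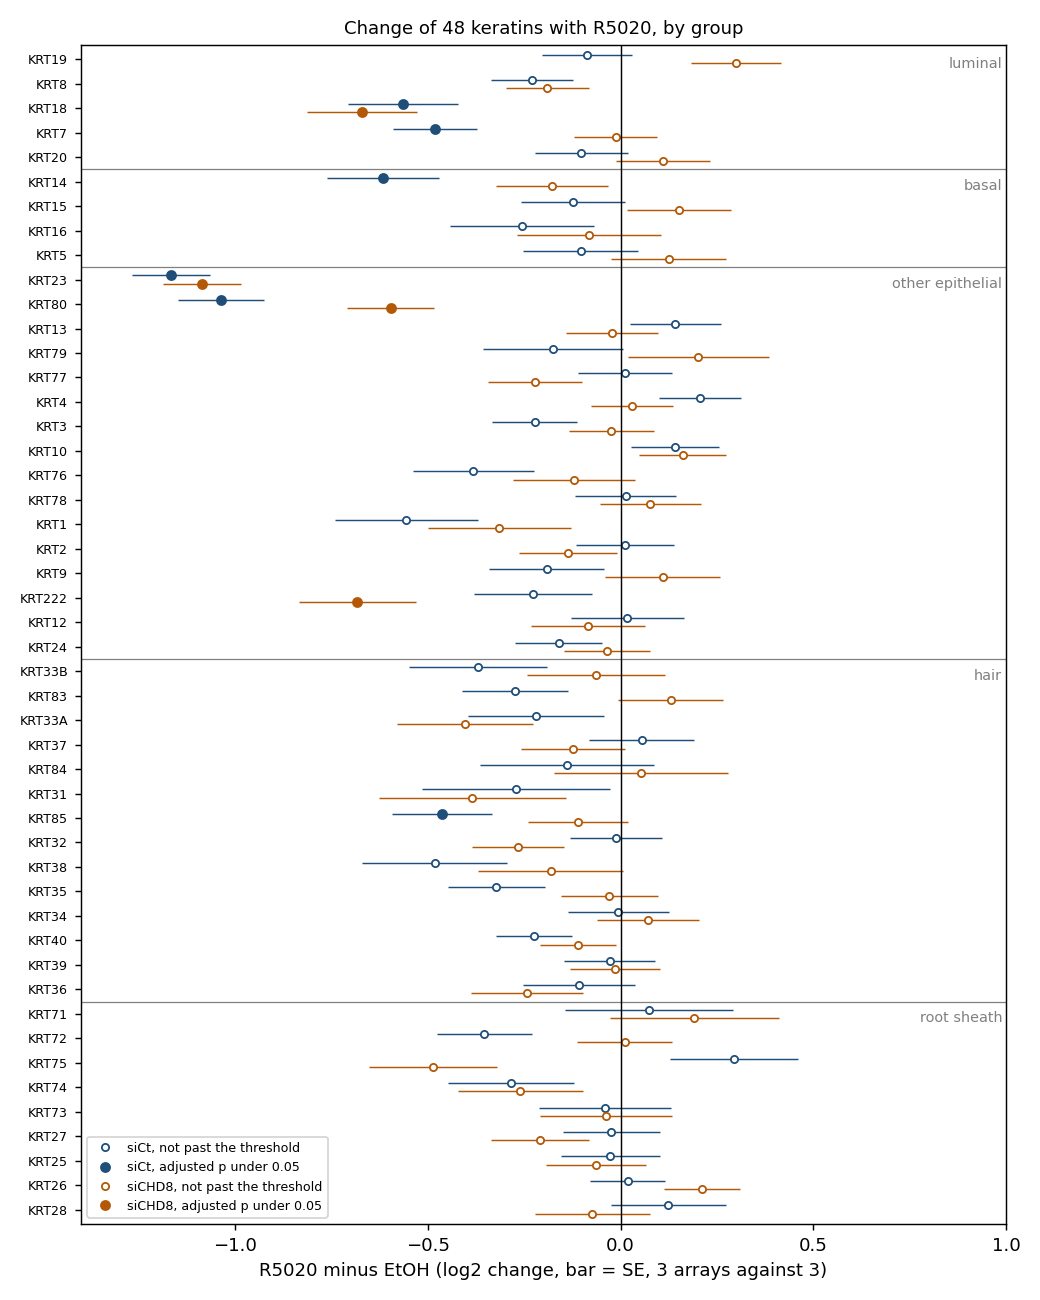
Log2 change with R5020 (horizontal axis, mean of 3 arrays minus mean of 3, bars are SE) of the 48 keratins in siCt (blue) and siCHD8 (orange), grouped and, within a group, ordered by mean level. Filled points pass an adjusted p of 0.05: 6 in siCt and 4 in siCHD8, all to the left of 0, with KRT23 and KRT80 farthest out in siCt.

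KRT23, a type I keratin of several simple epithelia, had the largest change of the family. Its log2 intensities in siCt were 10.39, 10.40 and 10.46 with EtOH and 9.27, 9.22 and 9.27 with R5020. In siCHD8 they were 10.03, 9.98 and 9.87 with EtOH and 9.02, 8.80 and 8.79 with R5020. Every array with R5020 lay below every array with EtOH of the same siRNA. R5020 left 44.5% of the signal in siCt (log2 change -1.17, SE 0.10, adjusted p = 1.13e-06) and 47.1% in siCHD8 (-1.09, SE 0.10, adjusted p = 2.56e-06). The difference between these changes was 0.08 (95% interval -0.22 to 0.39). With either treatment all siCHD8 values were lower than all siCt values, by -0.46 on average with EtOH (adjusted p = 0.072) and by -0.38 with R5020 (adjusted p = 0.13), neither past the threshold.

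KRT80, a type II keratin found widely in epithelia and neighbour of KRT7 at one end of the type II cluster, was at 6.02, 6.31 and 6.20 with EtOH and at 5.22, 5.21 and 4.99 with R5020 in siCt. The siCHD8 arrays were at 6.08, 6.06 and 5.97 with EtOH and at 5.56, 5.40 and 5.35 with R5020. Both siRNAs showed no overlap between treatments, and the arrays with R5020 were all higher in siCHD8 than in siCt. The fall was -1.04 in siCt (SE 0.11, adjusted p = 1.08e-05) and -0.60 in siCHD8 (SE 0.11, adjusted p = 0.00202). The difference between both falls was 0.44 (95% interval 0.10 to 0.78, unadjusted p = 0.0142), which did not pass after adjustment (0.49).

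**Figure D2:**
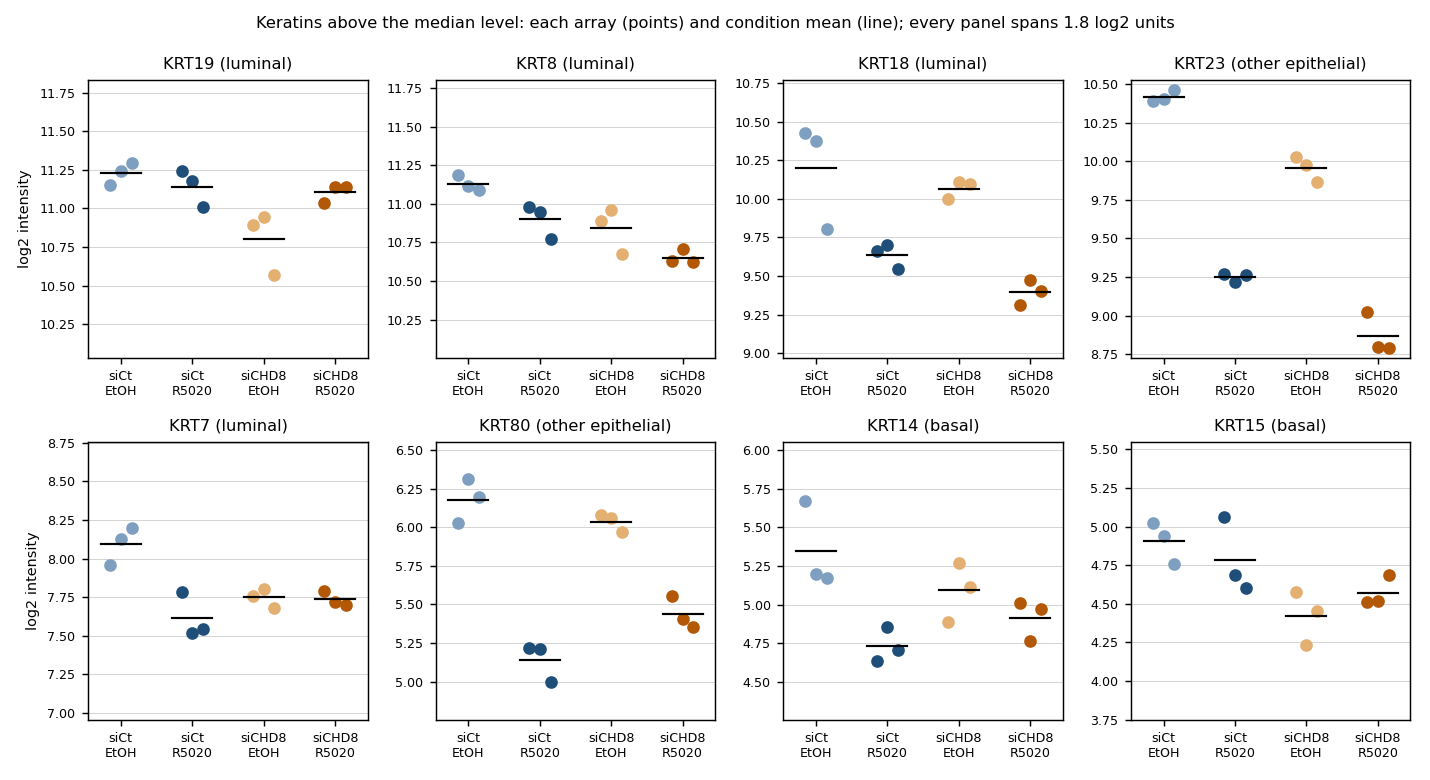
Log2 intensity (vertical axis, the same span in each panel) of the 8 keratins above the median level on each of 12 arrays, by condition, with the condition mean as a line. KRT23 and KRT80 drop with R5020 under both siRNAs, KRT18 drops under both with 1 low siCt EtOH array, KRT7 and KRT14 pass the threshold in siCt and not in siCHD8 (the difference itself did not pass), and KRT8, KRT19 and KRT15 pass it under neither.

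Among the luminal keratins, KRT18, the type I partner of KRT8, was at 10.43, 10.37 and 9.80 with EtOH and at 9.66, 9.70 and 9.55 with R5020 in siCt. In siCHD8 it was at 10.00, 10.11 and 10.10 with EtOH and at 9.31, 9.47 and 9.40 with R5020. The third siCt EtOH array lay close to the R5020 arrays, and still no array of one treatment overlapped the other. The fall was -0.56 in siCt (SE 0.14, adjusted p = 0.0142) and -0.67 in siCHD8 (SE 0.14, adjusted p = 0.00514). In siCt the change did not pass in 5 of 24 alternative analyses. Among these were the fits without siCt EtOH replicate 1 (-0.45, adjusted p = 0.0709), without siCt EtOH replicate 2 (-0.48, adjusted p = 0.0562) and without siCt R5020 replicate 3 (-0.52, adjusted p = 0.0633). The other KRT18 probe set, 8154725, fell by 0.75 in siCt (adjusted p = 0.00631) and by 0.65 in siCHD8 (adjusted p = 0.0175). A probe set that the annotation shares between KRT18 and MIR622 fell by 0.80 and 0.68. KRT18 has many near-identical pseudogenes, and how far these probes also read their RNA was not tested.

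KRT8, the type II partner of KRT18, had smaller estimated changes, which were not tested against those of KRT18. Its values in siCt were 11.19, 11.12 and 11.09 with EtOH and 10.98, 10.94 and 10.77 with R5020. In siCHD8 they were 10.89, 10.96 and 10.67 with EtOH and 10.63, 10.71 and 10.62 with R5020. The treatments did not overlap in siCt and did in siCHD8. The change was -0.23 (95% interval -0.46 to -0.00, adjusted p = 0.175) in siCt and -0.19 (adjusted p = 0.333) in siCHD8.

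KRT7, a type II keratin of ducts and glands, was at 7.96, 8.12 and 8.20 with EtOH and at 7.78, 7.52 and 7.54 with R5020 in siCt. In siCHD8 the values were 7.76, 7.80 and 7.68 with EtOH and 7.79, 7.72 and 7.70 with R5020. The siCt EtOH arrays stood above all 9 others, which lay together. R5020 left 71.6% of the signal in siCt (-0.48, SE 0.11, adjusted p = 0.00665), and the change in siCHD8 was -0.01 (95% interval -0.24 to 0.22). The 2 changes differed by 0.47 (95% interval 0.14 to 0.80, unadjusted p = 0.00785, adjusted p = 0.49). Both the hormone change in siCt and the siCHD8 difference with EtOH (-0.35, adjusted p = 0.199) use the same siCt EtOH arrays.

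KRT19, a small type I keratin of simple epithelium without a tail domain, had no fall past the threshold. It was at 11.15, 11.24 and 11.29 with EtOH and at 11.24, 11.18 and 11.01 with R5020 in siCt. In siCHD8 it was at 10.89, 10.95 and 10.57 with EtOH and at 11.03, 11.14 and 11.14 with R5020. Only the siCHD8 EtOH arrays stood apart, below the other 9. The change was -0.09 (adjusted p = 0.672) in siCt and 0.30 (adjusted p = 0.131) in siCHD8, 0.39 apart (unadjusted p = 0.0338, adjusted p = 0.508).

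KRT20, a keratin of intestinal and urothelial surface cells, was dim on all arrays. It was at 1.89, 1.99 and 2.18 with EtOH and at 1.76, 2.05 and 1.94 with R5020 in siCt. The siCHD8 arrays were at 1.92, 1.89 and 2.20 with EtOH and at 2.06, 2.13 and 2.15 with R5020. Treatments overlapped under both siRNAs, with changes of -0.10 and 0.11 (adjusted p = 0.63 and 0.69).

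Among the basal keratins 1 of 4 was called. KRT14, the type I partner of KRT5 in basal cells, was at 5.67, 5.20 and 5.17 with EtOH and at 4.63, 4.86 and 4.70 with R5020 in siCt. In siCHD8 it was at 4.89, 5.27 and 5.11 with EtOH and at 5.01, 4.76 and 4.97 with R5020. The treatments were apart in siCt and overlapped in siCHD8. R5020 left 65.2% of the signal in siCt (-0.62, SE 0.15, adjusted p = 0.0094), and the change in siCHD8 was -0.18 (95% interval -0.49 to 0.13, adjusted p = 0.555). The difference of 0.44 had an unadjusted p of 0.0498 and an adjusted p of 0.523.

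KRT15, a type I keratin of basal and progenitor cells, was at 5.03, 4.94 and 4.76 with EtOH and at 5.06, 4.69 and 4.60 with R5020 in siCt. The values in siCHD8 were 4.57, 4.24 and 4.45 with EtOH and 4.51, 4.52 and 4.69 with R5020. Treatments overlapped under both siRNAs, with changes of -0.12 and 0.15 (adjusted p = 0.598 and 0.6), while the siCHD8 EtOH arrays all lay below the siCt EtOH arrays (-0.49, SE 0.14, adjusted p = 0.146).

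KRT5, the type II partner of KRT14, was at 3.49, 3.40 and 3.69 with EtOH and at 3.40, 3.55 and 3.31 with R5020 in siCt. Its siCHD8 arrays read 3.33, 3.36 and 3.86 with EtOH and 3.85, 3.51 and 3.57 with R5020. Treatments overlapped under both siRNAs, and the changes were -0.10 (95% interval -0.42 to 0.21) and 0.12 (-0.19 to 0.44). KRT16, a keratin of activated keratinocytes, was at 4.41, 4.45 and 4.52 with EtOH and at 3.86, 4.33 and 4.42 with R5020 in siCt. The siCHD8 values of KRT16 were 4.06, 4.85 and 4.11 with EtOH and 4.17, 4.29 and 4.32 with R5020. These also overlapped, with changes of -0.26 (95% interval -0.65 to 0.14) and -0.08 (-0.48 to 0.32).

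KRT85, a type II keratin of the hair shaft and the 1 hair keratin called, was at 3.76, 3.53 and 3.52 with EtOH and at 3.14, 3.33 and 2.95 with R5020 in siCt. In siCHD8 it was at 3.53, 3.71 and 3.33 with EtOH and at 3.35, 3.35 and 3.53 with R5020. The treatments were apart in siCt and overlapped in siCHD8. All 12 values are below the median of the probe sets tested. The change was -0.46 in siCt (SE 0.13, adjusted p = 0.0264) and -0.11 in siCHD8 (adjusted p = 0.712). The change in siCt did not pass in 7 of 23 alternative analyses. Among these were each array centred on its median (-0.40, adjusted p = 0.0642) and quantile normalization (-0.39, adjusted p = 0.0689). So were the fits without siCt EtOH replicate 1 (-0.39, adjusted p = 0.106), siCt R5020 replicate 1 (-0.46, adjusted p = 0.0732) or siCt R5020 replicate 3 (-0.37, adjusted p = 0.132). The other 13 hair keratins ran from KRT38 at -0.48 (adjusted p = 0.11) to KRT37 at 0.05 (adjusted p = 0.83) in siCt and from KRT33A at -0.40 to KRT83 at 0.13 in siCHD8, none past the threshold.

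KRT222, a small keratin-like gene at the start of the type I cluster, was called in siCHD8 and not in siCt. Its values were 2.37, 1.94 and 1.97 with EtOH and 1.82, 1.64 and 2.14 with R5020 in siCt, which overlap. They were 2.58, 2.38 and 2.39 with EtOH and 1.83, 1.90 and 1.56 with R5020 in siCHD8, which do not. The change was -0.23 in siCt (adjusted p = 0.356) and -0.68 in siCHD8 (SE 0.15, adjusted p = 0.00722), and the difference of -0.46 did not pass (unadjusted p = 0.051, adjusted p = 0.525). Apart from KRT23, KRT80 and KRT222, the other epithelial keratins changed by -0.56 (KRT1, the suprabasal partner of KRT10, adjusted p = 0.0587) to 0.21 (KRT4, of the oesophageal lining, adjusted p = 0.23) in siCt. In siCHD8 KRT1 was again the lowest of them at -0.31 (adjusted p = 0.36), and KRT79 the highest at 0.20 (adjusted p = 0.6). No root sheath keratin passed, and their changes ran from KRT72 (-0.35) to KRT75 (0.29) in siCt and from KRT75 (-0.49) to KRT26 (0.21) in siCHD8. KRT75, of the companion layer of the hair root, was at 2.51, 2.41 and 2.67 with EtOH and at 2.88, 2.77 and 2.82 with R5020 in siCt. In siCHD8 it was at 2.81, 3.18 and 2.48 with EtOH and at 2.03, 2.42 and 2.57 with R5020. The R5020 arrays were the higher ones in siCt, and the treatments overlapped in siCHD8 (adjusted p = 0.269 and 0.0783).

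As groups, the 5 luminal keratins had a median log2 change with R5020 of -0.23 in siCt, the 4 basal ones of -0.19, the 14 hair keratins of -0.22, the 16 other epithelial ones of -0.17 and the 9 root sheath keratins of -0.02. The median was -0.15 over the 48 keratins and -0.05 over all probe sets tested. All 5 luminal, all 4 basal and 13 of 14 hair keratins were below 0 in siCt, most of them without passing the test, where 58.8% of all probe sets and 69.2% of those at or below the median level were. In siCHD8 the medians were -0.01 for luminal, 0.02 for basal, -0.11 for hair, -0.06 for other epithelial and -0.06 for root sheath keratins, beside -0.07 over the 48 and -0.02 over all probe sets. Centring each array on its median gave -0.16, -0.12 and -0.16 for luminal, basal and hair keratins in siCt, with 10 of 14 hair keratins below 0, and turned the root sheath median to 0.04. Within the groups the changes in siCt ran from -0.56 to -0.09 (luminal), from -0.62 to -0.10 (basal) and from -0.48 to 0.05 (hair). Type I keratins had a median of -0.12 in siCt with 3 of 28 called (10.7%), and type II of -0.20 with 3 of 20 called (15%), beside 6.00% of all probe sets.

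**Figure D3:**
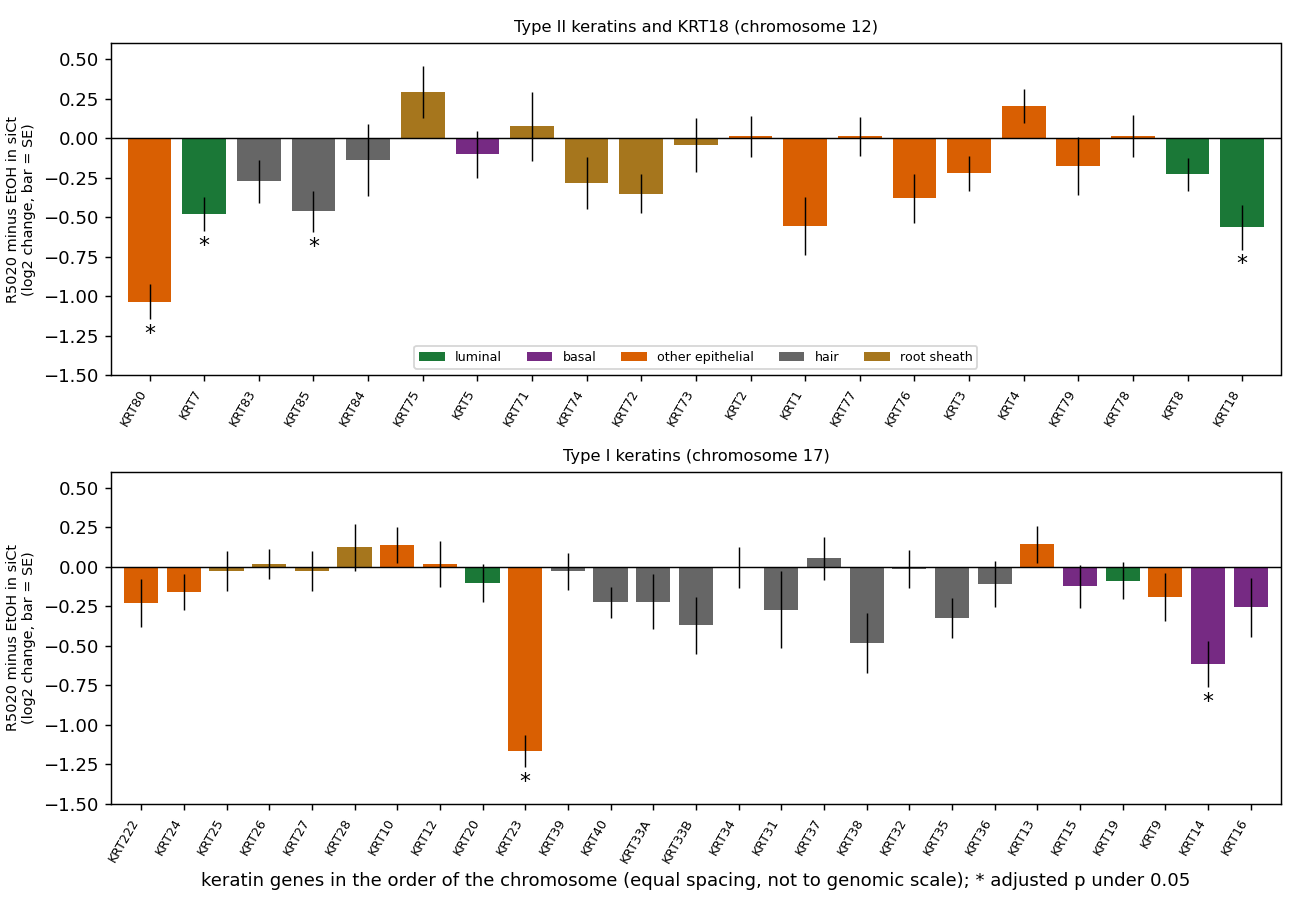
Log2 change with R5020 in siCt (vertical axis, bars from 0 with SE, 3 arrays against 3) of the keratins in their order along chromosome 12 (top) and chromosome 17 (bottom), spaced evenly and coloured by group, with a star at an adjusted p under 0.05. KRT80 and KRT7 are adjacent and both fell, as KRT18 did at the other end, whereas KRT23 fell by 1.17 between KRT20 and KRT39, which changed by -0.10 and -0.03.

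Along the chromosomes the keratins that fell were mostly not neighbours. On chromosome 12 KRT80 (-1.04) and KRT7 (-0.48) are next to each other at one end, KRT85 (-0.46) lies between KRT83 (-0.27) and KRT84 (-0.14), and KRT18 (-0.56) is next to KRT8 (-0.23) at the other end. On chromosome 17 KRT23 (-1.17) stands between KRT20 (-0.10) and KRT39 (-0.03), and KRT14 (-0.62) between KRT9 (-0.19) and KRT16 (-0.26). All of these are changes in siCt, and those of KRT83, KRT84, KRT8, KRT20, KRT39, KRT9 and KRT16 did not pass.

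For none of the 48 keratins did the hormone change differ between siCHD8 and siCt after adjustment, where 0 of all 21214 probe sets did (0% called, lowest adjusted p 0.356). At an unadjusted p under 0.05, 5 keratins differed (10.4%), beside 9.56% of all probe sets. They were KRT75 (-0.78, 95% interval -1.28 to -0.28), KRT7 (0.47), KRT80 (0.44), KRT14 (0.44) and KRT19 (0.39). Of the 8 keratins above the median level 4 differed so (50%), beside 10.99% of all probe sets above that level. Of the 40 others 1 did, KRT75 (2.5%), beside 8.12%. Among the 8 brighter keratins the difference between the hormone changes was above 0 for 7. Its median was 0.33 for these 8, beside -0.03 for all probe sets above that level. The standard error of this difference had a median of 0.19 over all probe sets, against 0.13 for a comparison of 3 arrays with 3, and a difference of the size seen for KRT80 did not pass over the whole table. At the study's limits, a fold above 1.5 with an adjusted p below 0.01, 3 keratins fell in siCt, KRT23, KRT80 and KRT14, beside 2.15% of all probe sets. KRT18 missed these limits on the probe set used here (fold 1.48, adjusted p = 0.0142). Its other probe set met them (1.68, adjusted p = 0.00631), as did the one shared with MIR622 (1.74, adjusted p = 0.00119). The study called a gene CHD8-dependent when the ratio of its hormone changes, siCHD8 over siCt, lay outside 0.8 to 1.2. The methods do not say whether linear or log changes were divided. With linear changes the ratio was 1.36 for KRT80, 1.36 for KRT14 and 1.06 for KRT23, and it lay outside for 35.0% of the 1390 probe sets past those limits. With log2 changes it was 0.58, 0.29 and 0.93, and it lay outside for 54.0%. Neither ratio has an error term.

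For the knockdown itself 0 of 48 keratins were called with EtOH (0.292% of all probe sets called) and 0 with R5020 (0.189%). At an unadjusted p under 0.05 there were 7 keratins with EtOH, beside 12.1% of all probe sets, and 5 with R5020, beside 13.9%. With EtOH all 8 keratins above the median level were lower in siCHD8. Of these 5 passed this limit (62.5%), beside 16.94% of all probe sets above that level. Their median difference was -0.32, beside -0.02. With R5020, 5 of the 8 were lower and 3 higher, and 3 passed this limit (37.5%, beside 16.98%). The median was then -0.12, beside -0.05. The differences with EtOH and the hormone changes share the EtOH arrays. KRT83, a hair keratin, had the largest difference with R5020, 0.56 (adjusted p = 0.103).

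Related genes were read from the same fit, 53 of 55 listed: 23 for plakins, desmosomal and other keratin-binding proteins, 17 for other intermediate filaments, and 13 for the cornified layer. In siCt 4 of the 53 rose (7.55%, beside 8.10% of all probe sets) and 6 fell (11.3%, beside 6.00%). In siCHD8 5 rose (9.43%, beside 6.04%) and 3 fell (5.66%, beside 5.43%). Of the 23 keratin-binding genes 3 rose and 3 fell in siCt and 4 rose and 2 fell in siCHD8, of the 17 other filament genes 1 rose and 2 fell in siCt and 1 moved each way in siCHD8, and of the 13 cornified layer genes 1 fell in siCt and none passed in siCHD8. Periplakin (PPL), a plakin that links keratins to the desmosome and the cell cortex, averaged 5.49 ± 0.31 (SD, n = 3) with EtOH and 7.39 ± 0.23 with R5020 in siCt. In siCHD8 PPL averaged 4.90 ± 0.12 with EtOH and 6.99 ± 0.12 with R5020. The treatments were far apart under both siRNAs, with rises of 1.89 (SE 0.15, adjusted p = 6e-07) and 2.09 (adjusted p = 2.45e-07). Dystonin (DST), a plakin that ties keratins to hemidesmosomes in epithelia, averaged 5.43 ± 0.13 (SD, n = 3) with EtOH and 4.01 ± 0.15 with R5020 in siCt. In siCHD8 DST averaged 5.66 ± 0.22 with EtOH and 4.09 ± 0.09 with R5020. It fell by 1.41 in siCt (adjusted p = 1.72e-06) and by 1.57 in siCHD8 (adjusted p = 6.79e-07), again with no overlap. PPL, DST and the desmosomal plakophilin PKP1 (0.79 and 0.75) kept their calls in every alternative.

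**Figure D4:**
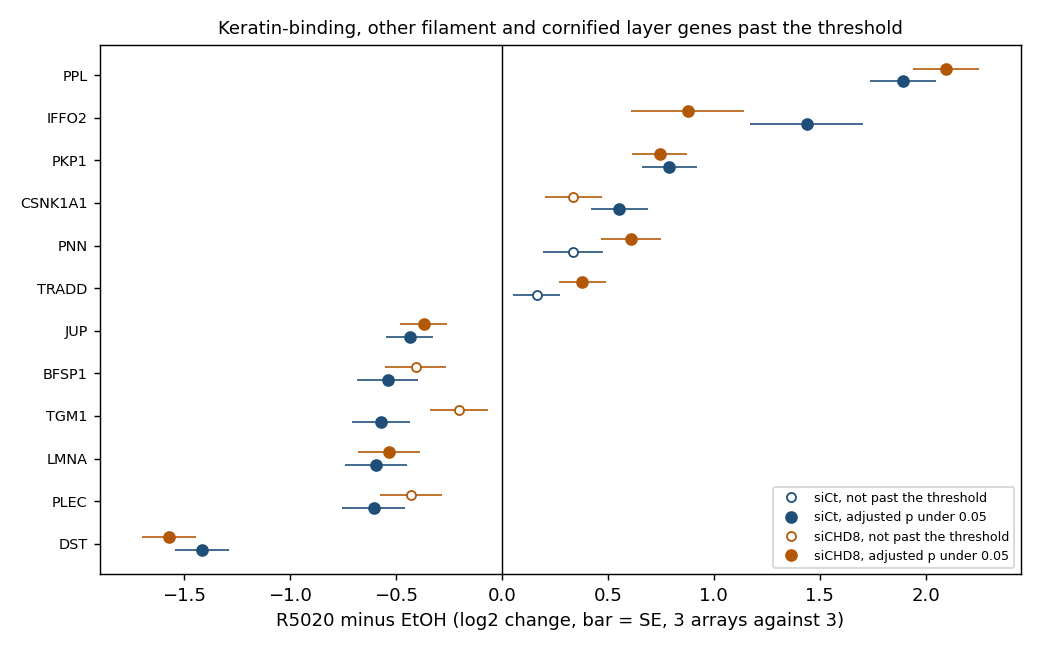
Log2 change with R5020 (horizontal axis, 3 arrays against 3, bars are SE) in siCt (blue) and siCHD8 (orange) of the 12 of these 53 genes past the threshold under either siRNA, with filled points where it was passed. PPL rose by 1.89 and 2.09 and DST fell by 1.41 and 1.57, and the other 10 lie between them.

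Among the other genes listed, in siCt the orphan intermediate filament gene IFFO2 (1.44) and the kinase CSNK1A1 (0.55) rose, and plectin (PLEC, -0.60), lamin A/C (LMNA, -0.59), transglutaminase TGM1 (-0.57), the lens filament gene BFSP1 (-0.54) and plakoglobin (JUP, -0.43) fell. In siCHD8 IFFO2 (0.88), PNN (0.61) and TRADD (0.38) rose and LMNA (-0.53) and JUP (-0.37) fell. PNN kept its siCHD8 call in all 23 alternatives, whereas IFFO2 lost it in 18 of 22 (changes of 0.59 to 1.28, adjusted p up to 0.209), JUP in 15 of 23 (-0.45 to -0.32, up to 0.143), TRADD in 9 of 23 (0.33 to 0.47, up to 0.151) and LMNA in 7 of 23 (-0.66 to -0.45, up to 0.127). Without siCt EtOH replicate 3 the count in siCt was 5 in place of 10, and CSNK1A1, PLEC, LMNA, BFSP1 and JUP were no longer called. In siCHD8 the count of 8 became 5 without siCHD8 EtOH replicate 1 or 2 and 4 without siCHD8 R5020 replicate 1 or 2. The desmosomal cadherins DSC1, DSC2, DSC3, DSG1, DSG2, DSG3 and DSG4 and desmoplakin (DSP) passed in neither. Of 9 luminal epithelial markers 5 fell in siCt, GATA3 (-0.73), FOXA1 (-1.65), ESR1 (-0.97), PGR (-1.23) and KRT18, which counts here and above (55.6%, beside 6.00% of all probe sets). In siCHD8 6 of the 9 fell (66.7%, beside 5.43%), the same 5 and CDH1 (-0.36). All 9 lie above the median level, where 8.50% of probe sets fell in siCt and 8.19% in siCHD8. Of 5 basal and myoepithelial markers measured, KRT14 fell in siCt (20%) and none in siCHD8, and all 5 were below 0 in siCt. Of 4 keratinocyte markers none passed under either siRNA. Of the 6 fibroblast markers COL1A1 fell (-0.39, adjusted p = 0.032), and of the 6 blood and endothelial markers none passed. The part of these marker changes in those of the keratins was not tested.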

How the data were processed

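The authors hybridised RNA from T47D-MTVL cells to Affymetrix Human Gene 1.0 ST arrays and normalised the scans by RMA (background correction, normalisation between arrays and 1 summary value for each probe set). Their deposited table gives log2 intensities, used as they are. The sources do not state software versions or filters. Of 33297 probe sets, 21214 with at least 1 gene symbol were tested with limma 3.58.1 in R 4.3.3 (1 mean per condition over 12 arrays, lmFit, contrasts, eBayes, Benjamini-Hochberg adjustment). The contrasts were R5020 against EtOH in siCt and in siCHD8, their difference, and siCHD8 against siCt with EtOH and with R5020. A gene was called at an adjusted p under 0.05. The precision is limited by 3 arrays per condition, and p-values cover the spread between these arrays. The fit was tested on simulated data.

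Named with all array values are the keratins called in any contrast and all luminal and basal keratins, with KRT80. KRT75 was added to these after its values were seen. The others are given by ranges, with the highest and lowest change, and the related genes called by size, up to 4 each way and list. Members and lists were chosen with earlier results of these data known. Replicate numbers did not pair the arrays: same-numbered arrays deviated together at r of -0.25 to 0.20 (18 pairs, 4 over 0.1). Figures were drawn with matplotlib 3.10.9 in Python 3.11.15. As alternatives, arrays were centred on their median or quantile normalised again, dim probe sets were dropped, probe sets without a symbol were added, 1 probe set or the mean was kept for each gene, the variance was trended and robust, arrays were weighted, the fit was limited to the conditions compared, the replicate number was a block, the study's limits were used, or each array was left out in turn.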

Additional observations from a re-analysis of the deposited data

How the results depend on the processing

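Of 28 single-gene changes with R5020, none turned its direction under any alternative, and 560 of their values stayed past the threshold while 86 did not. KRT23 and KRT80 under both siRNAs, KRT14 in siCt, and KRT18 and KRT222 in siCHD8 passed in every alternative that could give them. KRT7 in siCt missed only the limits of the study. The count of 6 keratins in siCt was 4 to 8 with 1 array left out and 3 under the limits of the study. The count of 4 in siCHD8 was 4 to 5 with 1 array left out. With siCHD8 against siCt, no keratin was called with EtOH, but 1 (KRT23) with dim probe sets left out and 2 (KRT19 and KRT23) with a trended and robust variance. With R5020 none was called, but 1 (KRT23) with a trended and robust variance, 2 (KRT23 and KRT83) with array weights and 1 (KRT83) with only the conditions compared. Leaving out any 1 array gave 0 in both. No alternative called a keratin for a different hormone response. Of the 53 keratin-binding, other filament and cornified layer genes, 10 in siCt became 4 under the limits of the study and 5 to 12 with 1 array left out. The 8 in siCHD8 became 4 with all probe sets tested, 5 with only the conditions compared, 4 under the limits of the study and 4 to 10 with 1 array left out. The cause of these changes was not tested. With the replicate number as a block, 7 keratins were called in siCt, 4 in siCHD8 and 0 in the other comparisons, and 5 of those 53 genes in siCHD8. Only 5 of 12 arrays deviated most like an array of their own number. Dropping replicate 3 of siCt EtOH along with replicate 1 of siCHD8 EtOH, chosen after seeing the data, kept all 6 keratins in siCt and all 4 in siCHD8. The 40 keratins at or below the median level have no detection call, which limits what their values show.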
